A study of Ovis aries with 6 samples.

Results

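The 6 genes described here encode enzymes that make or use ketone bodies: HMGCLL1, ACAT1, ACAT2, BDH1, BDH2 and OXCT1. They were chosen by name, and each was found once among the 26741 genes of the deposited count matrices, which list genes by NCBI gene number (HMGCLL1 101113541, ACAT1 101104601, ACAT2 101111975, BDH1 101104112, BDH2 101106011 and OXCT1 101102177). The data are single-nucleus RNA counts from the rumen epithelium, the keratinised lining of the ruminant forestomach, taken from the ventral sac of 6 male lambs. The labels put 3 animals in MGNS and 3 in MGHS. By its title the study was on supplementary feeding of grazing sheep, but the labels neither spell out the group names nor give the diet, breed or age of either group. Each animal gave 1 library and was the replicate.

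The rumen epithelium is known for turning butyrate, absorbed from microbial fermentation, into acetoacetate and beta-hydroxybutyrate that pass into the blood. In mitochondria, ACAT1 interconverts acetyl-CoA and acetoacetyl-CoA, acetoacetyl-CoA is carried on to acetoacetate, and BDH1 interconverts acetoacetate and beta-hydroxybutyrate. OXCT1 places CoA back on acetoacetate, which is the entry step for burning ketone bodies, and ACAT1 then splits the product. ACAT2 is the cytosolic thiolase that feeds sterol synthesis, BDH2 is a cytosolic dehydrogenase related to BDH1, and HMGCLL1 is an HMG-CoA lyase outside mitochondria.

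The files held 67553 barcodes and 268011559 unique molecular identifiers (UMIs, each standing for 1 captured transcript molecule), with 34418856 to 59997793 UMIs per library. After filtering, 41822 nuclei were kept, 4830 to 10201 per animal, and the median nucleus of an animal held 3123 to 4764.5 UMIs. Pairs of libraries shared 19 to 49 cell barcodes. Clustering gave 24 clusters, which were named from fixed marker genes. The ending "-like" marks a name given from RNA markers only. Keratinocyte-like nuclei numbered 13523 and were basal-like (5110), spinous-like (2395), granular-like (4626) or cycling (1392). Most nuclei of tissue labelled as epithelial fell outside them, in unnamed clusters or in classes such as T or NK-like (7802) and fibroblast-like (3387). Clusters 1, 3, 6, 12, 17 and 19 stayed unnamed, and 2498 of the 4115 low-UMI nuclei of cluster 6 came from MGHS 3. Cluster 3 (1451 nuclei) scored highest for the granular-like list, with KRT36 among its leading genes, but below the minimum for a name. Some unnamed nuclei may therefore be keratinocytes, and they are not counted as keratinocyte-like here. The 6 genes and 29 other genes of the ketone pathway were kept out of the clustering.

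Levels are given as CPM, the UMIs of a gene scaled to a common total of UMIs for that class in each animal, as mean ± SD over 6 animals where no group is named. Counts are not scaled to gene length, so a level is compared between classes and animals and not between genes. The 6 genes fell into different cell classes. ACAT1, ACAT2 and BDH1 were found mostly in keratinocyte-like nuclei, which held 68.0% ± 5.00, 68.3% ± 4.71 and 81.9% ± 4.95 of their UMIs. BDH2 was spread more widely, with 48.7% ± 10.7 in keratinocyte-like nuclei. OXCT1 was found mostly elsewhere: keratinocyte-like nuclei held 8.04% ± 5.94 of its UMIs, while T or NK-like nuclei held 32.5% ± 5.20 and fibroblast-like nuclei 21.2% ± 7.78. HMGCLL1 was scarce, with 296 UMIs in all nuclei together.

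**Figure D1:**
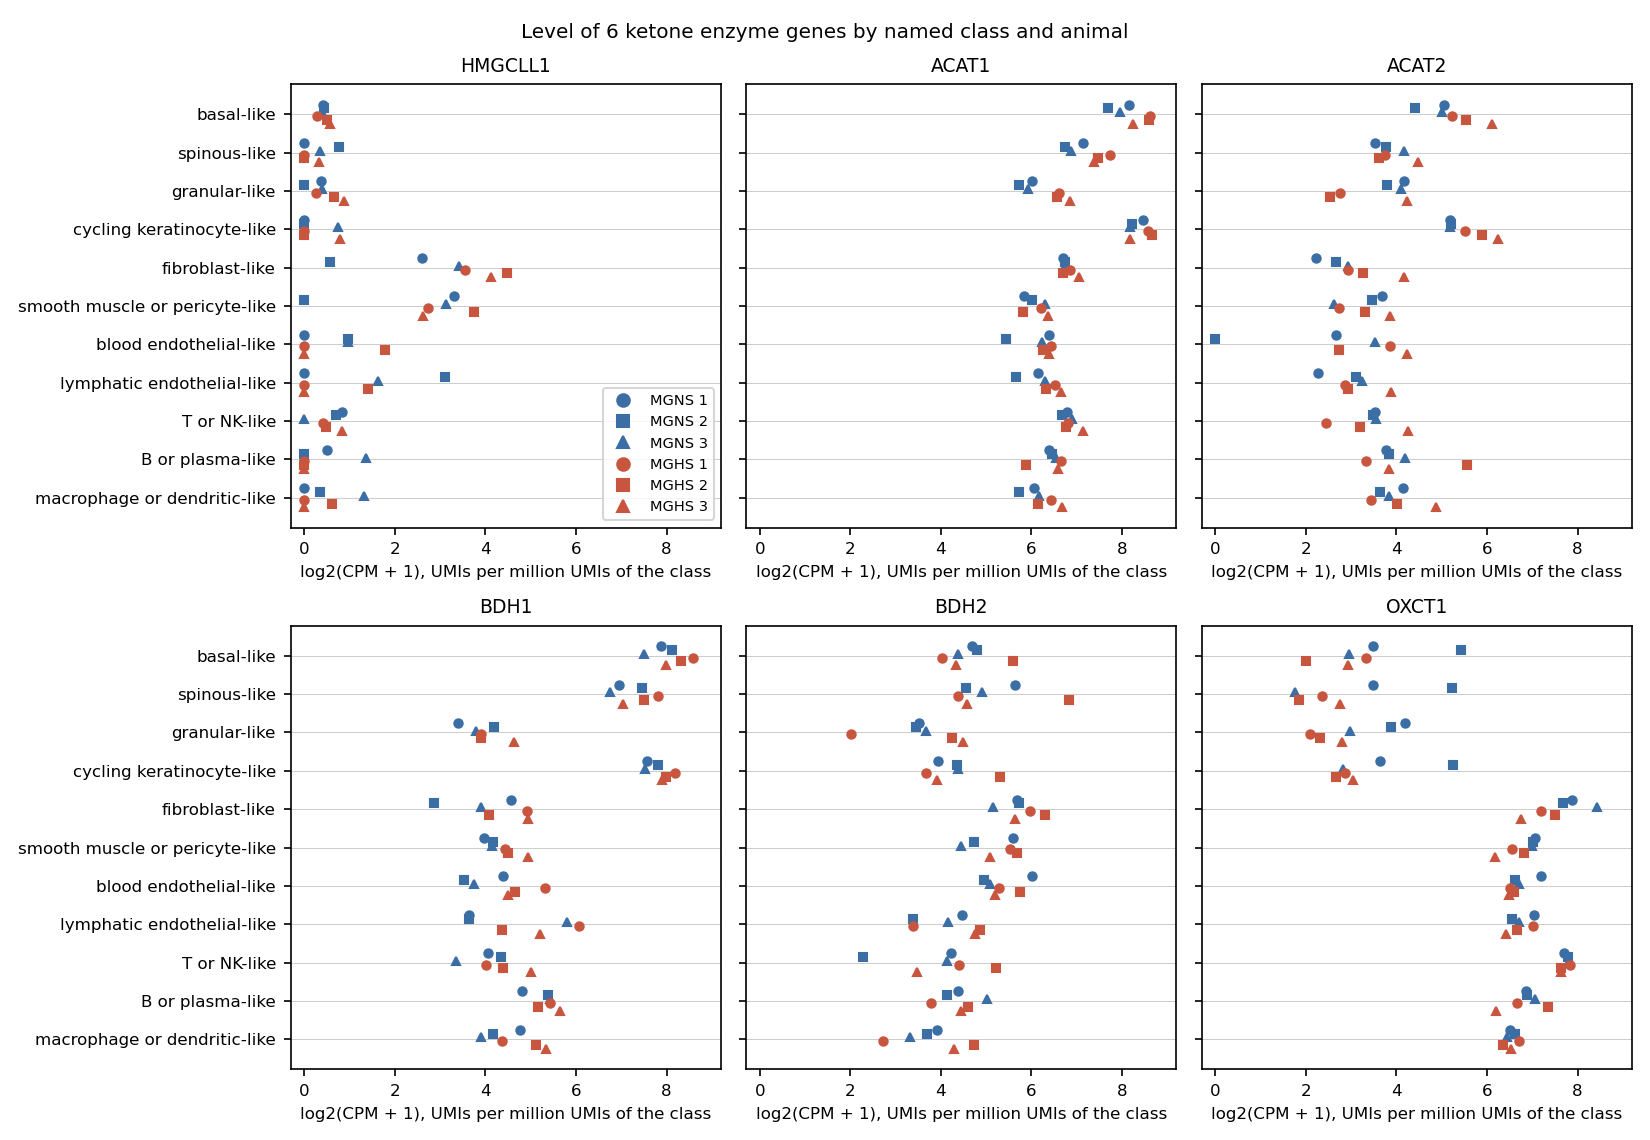
Level of each gene as log2(CPM + 1) in 11 named cell classes, 1 panel per gene and 1 point per animal (colour for the group, shape for the replicate number). BDH1 is high in basal-like, spinous-like and cycling nuclei and low in granular-like nuclei, and OXCT1 is high in T or NK-like and fibroblast-like nuclei and lowest in the keratinocyte classes.

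BDH1, the mitochondrial enzyme that interconverts the ketone bodies, was highest in basal-like nuclei. In MGNS 1, 2 and 3 it stood at 235, 278 and 180.3 CPM there, and in MGHS 1, 2 and 3 at 386, 319 and 253 CPM. The basal-like mean was 275 CPM ± 71.0, followed by the unnamed low-UMI cluster 6 at 249 CPM ± 75.2 and cycling keratinocytes at 230.0 CPM ± 40.7. These neighbours overlapped in their SDs. Spinous-like nuclei held 156 CPM ± 43.9, and all 6 animals were lower there than in cycling nuclei. Granular-like nuclei held 15.2 CPM ± 4.82, close to fibroblast-like (19.7 CPM ± 9.28) and T or NK-like nuclei (18.5 CPM ± 7.35). Keratinocyte-like nuclei as a whole had 8.11-fold more BDH1 than T or NK-like nuclei, as a mean log2 ratio of 3.02 ± 0.41 with 1 CPM added, and the ratio was above 0 in 6 of 6 animals.

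The share of nuclei with at least 1 BDH1 UMI showed the same pattern after each nucleus was thinned to 2000 UMIs, which removes differences in depth between classes. Thinned shares were 39.1% ± 7.37 in basal-like, 25.0% ± 6.49 in spinous-like and 2.53% ± 0.827 in granular-like nuclei, and the unthinned shares were 71.3%, 59.1% and 10.2%. T or NK-like nuclei, taken as a class with no known part in ketone release, had 3.23% ± 1.35 thinned and 4.48% unthinned. Median depths were 7295, 9592, 9186 and 2573 UMIs in basal-like, spinous-like, granular-like and T or NK-like nuclei. Thinning left out shallower nuclei, 159, 119, 70 and 1416 of these classes in MGNS and 308, 89, 141 and 962 in MGHS. The thinned granular-like share therefore lay near the level found in T or NK-like nuclei, and the unnamed cluster 12 was lower at 1.59%. No background level was estimated, so whether granular-like BDH1 exceeds background was not tested.

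ACAT1, the mitochondrial thiolase that stands at both ends of the ketone cycle, was present in every class. It was highest in cycling keratinocytes (336 CPM ± 52.0) and basal-like nuclei (303 CPM ± 73.7), whose order differed between animals: 4 of 6 were higher in cycling nuclei. Spinous-like nuclei held 152 CPM ± 39.0 and granular-like nuclei 79.7 CPM ± 24.7. The named immune, fibroblast, muscle and endothelial classes lay between 68.0 CPM ± 11.2 in smooth muscle or pericyte-like nuclei and 115 CPM ± 14.0 in T or NK-like nuclei. ACAT1 in all keratinocyte-like nuclei exceeded the T or NK-like level by 1.64-fold in the mean, in 6 of 6 animals.

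ACAT2, the cytosolic thiolase, was also highest in cycling (47.3 CPM ± 16.2) and basal-like nuclei (39.0 CPM ± 16.5), with cluster 6 between them at 44.0 CPM ± 8.47. Each of these was above the next in only 3 of 6 animals. Spinous-like (14.2 CPM ± 4.19) and granular-like nuclei (12.4 CPM ± 5.76) were low and did not differ beyond their spread. Its lowest classes were fibroblast-like (7.99 CPM ± 4.71) and lymphatic endothelial-like nuclei (7.75 CPM ± 3.33). The ACAT2 gene model overlaps that of TCP1, a chaperonin subunit, and no source used here says whether counting used strand, so part of its UMIs could belong to TCP1.

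BDH2 was highest in fibroblast-like nuclei (54.0 CPM ± 14.4) and in the unnamed cluster 1 (53.6 CPM ± 12.8), whose leading genes include both MYH11 and ACTA2, which encode smooth muscle proteins, and RSPO3 of the fibroblast list. The next class was spinous-like at 42.5 CPM ± 35.7, and its SD came from 1 animal. Spinous-like BDH2 was 48.5, 22.5 and 29.2 CPM in MGNS 1, 2 and 3 and 19.7, 112 and 22.9 CPM in MGHS 1, 2 and 3. MGHS 2 was the highest animal for BDH2 in basal-like (47.0 CPM), spinous-like, cycling (38.7 CPM) and fibroblast-like nuclei (77.5 CPM). Per nucleus rather than as CPM, spinous-like nuclei came first for BDH2 with 0.404 BDH2 UMIs, against 0.251 in fibroblast-like nuclei.

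OXCT1, the enzyme that starts ketone body use, had the opposite distribution. T or NK-like nuclei held 206, 219 and 225 CPM in MGNS 1, 2 and 3 and 228, 198 and 199 CPM in MGHS 1, 2 and 3, a narrow range with a mean of 212 CPM ± 13.3. Fibroblast-like nuclei (202 CPM ± 82.4) and the unnamed clusters 19 (186 CPM ± 44.6) and 12 (183 CPM ± 16.1) came next and overlapped with it. Per nucleus rather than as CPM, cluster 19 (0.959 OXCT1 UMIs) and fibroblast-like nuclei (0.922) came before T or NK-like nuclei (0.604). By CPM the 4 keratinocyte classes were the lowest of the 18 classes, between 8.53 CPM ± 5.70 in granular-like and 12.9 CPM ± 14.4 in basal-like nuclei. OXCT1 in all keratinocyte-like nuclei was 23.2-fold below T or NK-like nuclei (mean log2 ratio -4.54 ± 1.02, lower in 6 of 6 animals) and 20.7-fold below fibroblast-like nuclei (-4.37 ± 1.09, lower in 6 of 6).

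Thinned shares of nuclei with an OXCT1 UMI were 30.5% ± 0.893 in T or NK-like, 27.0% ± 7.26 in fibroblast-like, 2.19% ± 2.28 in basal-like and 1.37% ± 0.837 in granular-like nuclei. The unthinned shares were 35.5%, 39.6%, 7.61% and 5.44%. Fibroblast-like nuclei had a median of 3752 UMIs, and thinning left out 233 of them in MGNS and 238 in MGHS. The keratinocyte value was not even across animals: in basal-like nuclei the thinned share was 6.76% in MGNS 2 and between 0.553% and 1.76% in the other animals.

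HMGCLL1, the lyase outside mitochondria, had 164 of its 296 UMIs in fibroblast-like nuclei. There it stood at 5.09, 0.484 and 9.75 CPM in MGNS 1, 2 and 3 and at 10.8, 21.3 and 16.4 CPM in MGHS 1, 2 and 3. The 13523 keratinocyte-like nuclei held 46 HMGCLL1 UMIs, or 0.353 CPM ± 0.16. Glia-like nuclei had a higher mean (12.7 CPM ± 14.0) that rested on 5 UMIs. HMGCLL1 and BDH1 each overlap an unnamed lncRNA gene model, so the same limit on strand applies to them.

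Across the 18 classes, mean log2(CPM + 1) of BDH1 followed ACAT1 (Pearson r = 0.80) and ACAT2 (r = 0.76) and ran against OXCT1 (r = -0.76). ACAT1 and OXCT1 also ran against each other (r = -0.64). These values describe class means that share the same libraries, and no p is given. Among 12386 genes, those with the class pattern most like BDH1 were LAD1, an anchoring filament protein of basement membranes (r = 0.98), ACADS, the short-chain acyl-CoA dehydrogenase (r = 0.98), and MGST1 (r = 0.97). GLYCTK, GPT and BPNT1 came closest to ACAT1 (r = 0.93, 0.92 and 0.92). VDAC2, ATP5PB and SMIM20 came closest to ACAT2 (r = 0.92, 0.92 and 0.90), and VDAC2 and ATP5PB encode a mitochondrial channel and an ATP synthase subunit. STARD3NL, RBM43 and KLHL5 came closest to OXCT1 (r = 0.97, 0.96 and 0.96), and PACRGL, ZFP2 and TEF to BDH2 (r = 0.88, 0.88 and 0.87). HMGCLL1 lay below the minimum level for this comparison.

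The epithelium renews from the basal layer outward through spinous to granular cells, and levels were compared between these layers within animals (edgeR quasi-likelihood test on UMI sums with the animal as a block, Benjamini-Hochberg adjustment over 14158 genes). HMGCLL1 had too few UMIs to be tested. Layers differed for most genes: 55.4% of those tested passed between spinous-like and basal-like nuclei, 71.7% between granular-like and spinous-like and 82.7% between granular-like and basal-like. Of the 5 enzymes, 4 passed in the first of these contrasts, 3 in the second and 3 in the third, so passing does not in itself set these enzymes apart.

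BDH1 fell at both steps, by a log2 change of -0.69 ± 0.13 (SE, adjusted p = 0.000472) from basal-like to spinous-like and -2.17 ± 0.14 (adjusted p = 7.86e-09) from spinous-like to granular-like nuclei. ACAT1 fell by a log2 change of -0.86 ± 0.13 (adjusted p = 5.4e-05) and ACAT2 by -1.30 ± 0.22 (adjusted p = 0.000185) from basal-like to spinous-like nuclei. BDH2 was the exception at this step, with a log2 change of 0.69 ± 0.24 (adjusted p = 0.0254). The BDH2 call was lost when libraries were scaled by their totals. OXCT1 did not pass there (-0.27 ± 0.32, adjusted p = 0.494).

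**Figure D2:**
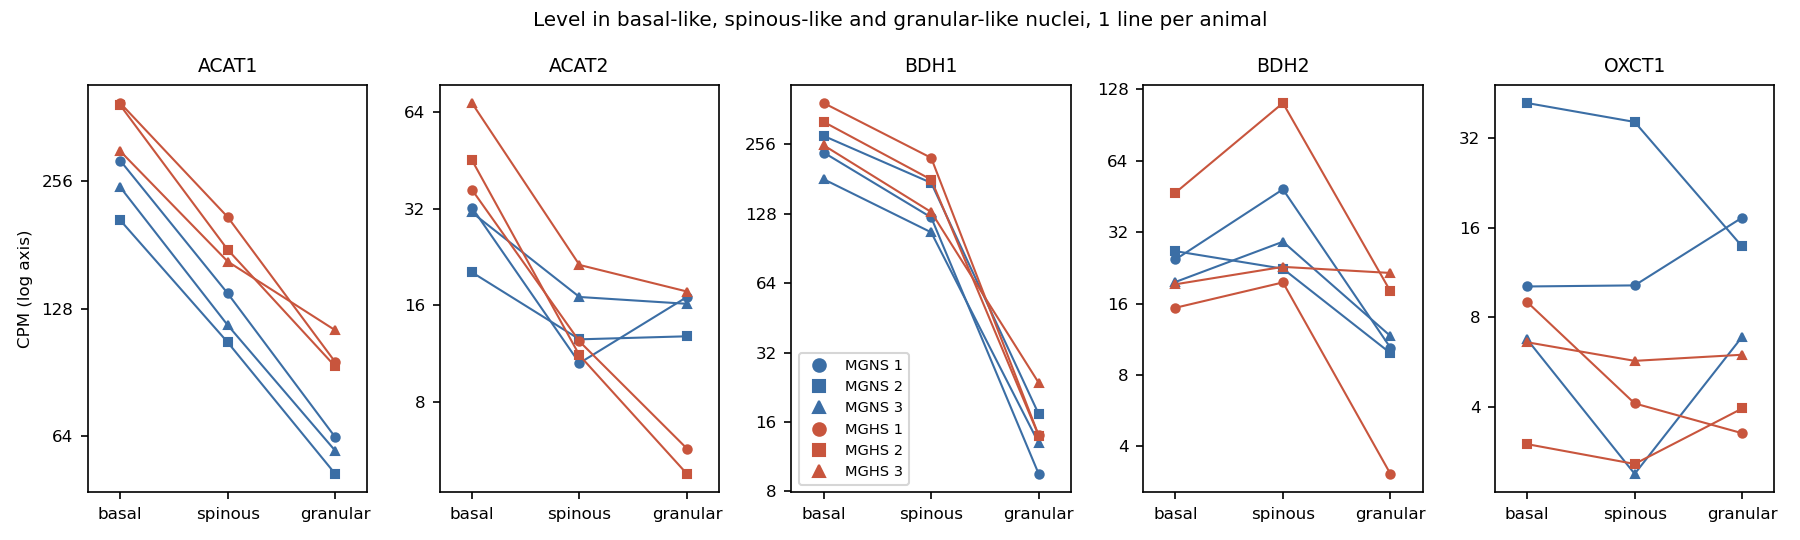
Level of 5 enzyme genes in CPM (log axis) in basal-like, spinous-like and granular-like nuclei, with 1 line per animal, colour for the group and shape for the replicate number. BDH1 and ACAT1 step down from basal-like to granular-like in all 6 animals, and MGNS 2 lies above the other animals for OXCT1 in basal-like and spinous-like nuclei.

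The comparisons with granular-like nuclei depended on how libraries were scaled. Scaling by library totals in place of edgeR's trimmed means lowered the median of all genes by 1.14 (log2) for granular-like against spinous-like and by 1.28 against basal-like nuclei. By library totals 81.7% and 86.7% of genes passed, and the share of passing genes that were higher moved from 48.0% to 17.9% and from 46.7% to 23.0%. BDH1 was lower in granular-like nuclei under both scalings, with -3.33 against spinous-like nuclei by library totals. ACAT1 was 0.22 ± 0.13 (adjusted p = 0.137) by trimmed means and -0.94 ± 0.14 (adjusted p = 3.66e-06) by library totals. ACAT2 changed by 0.85 ± 0.23 (adjusted p = 0.00427) and by -0.26 ± 0.28 (adjusted p = 0.399), so its direction between these layers was not settled. OXCT1 was 1.21 ± 0.33 (adjusted p = 0.00451) by trimmed means and 0.13 ± 0.32 (adjusted p = 0.717) by library totals.

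The wider list of ketone pathway genes placed these enzymes among their partners. Of its 27 genes reported here, 22 could be tested between layers, and from basal-like to granular-like nuclei 15 were lower and 6 higher, with a median log2 change of -1.39 against -0.17 for all genes. By library totals 17 were lower and 2 higher, with a median of -2.70 against -1.45.

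SLC16A1, the monocarboxylate carrier that exports ketone bodies, stood at 955 CPM ± 315 in basal-like, 105 CPM ± 57.9 in spinous-like and 26.3 CPM ± 17.5 in granular-like nuclei (-4.00 ± 0.26, adjusted p = 1.94e-09). Of the 9 tested genes that oxidise butyrate and related acids, 8 were lower in granular-like than in basal-like nuclei, among them HADH (-3.08 ± 0.14), ACADS (-2.93 ± 0.14) and ACAA2 (-2.90 ± 0.13), and ACSS1, an acetyl-CoA synthetase, was higher by 1.91 ± 0.33. The control genes were split: 4 of 7 were higher, CPT1A by 2.60 ± 0.17, ANGPTL4 by 2.33 ± 0.37, PPARGC1A by 1.96 ± 0.36 and CPT2 by 1.43 ± 0.18, and 3 were lower. These values are by trimmed means, where 46.7% of all passing genes were higher, against 23.0% by library totals. Fewer list genes were higher by library totals, as given above, so not all of these higher calls held under both scalings. AACS, which returns acetoacetate to CoA form in the cytosol, was 0.54 ± 0.23 by trimmed means and -0.74 by library totals. The low AACS levels were 4.82 CPM ± 1.13, 10.6 CPM ± 4.52 and 3.09 CPM ± 1.67 in the basal-like, spinous-like and granular-like layers.

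**Figure D3:**
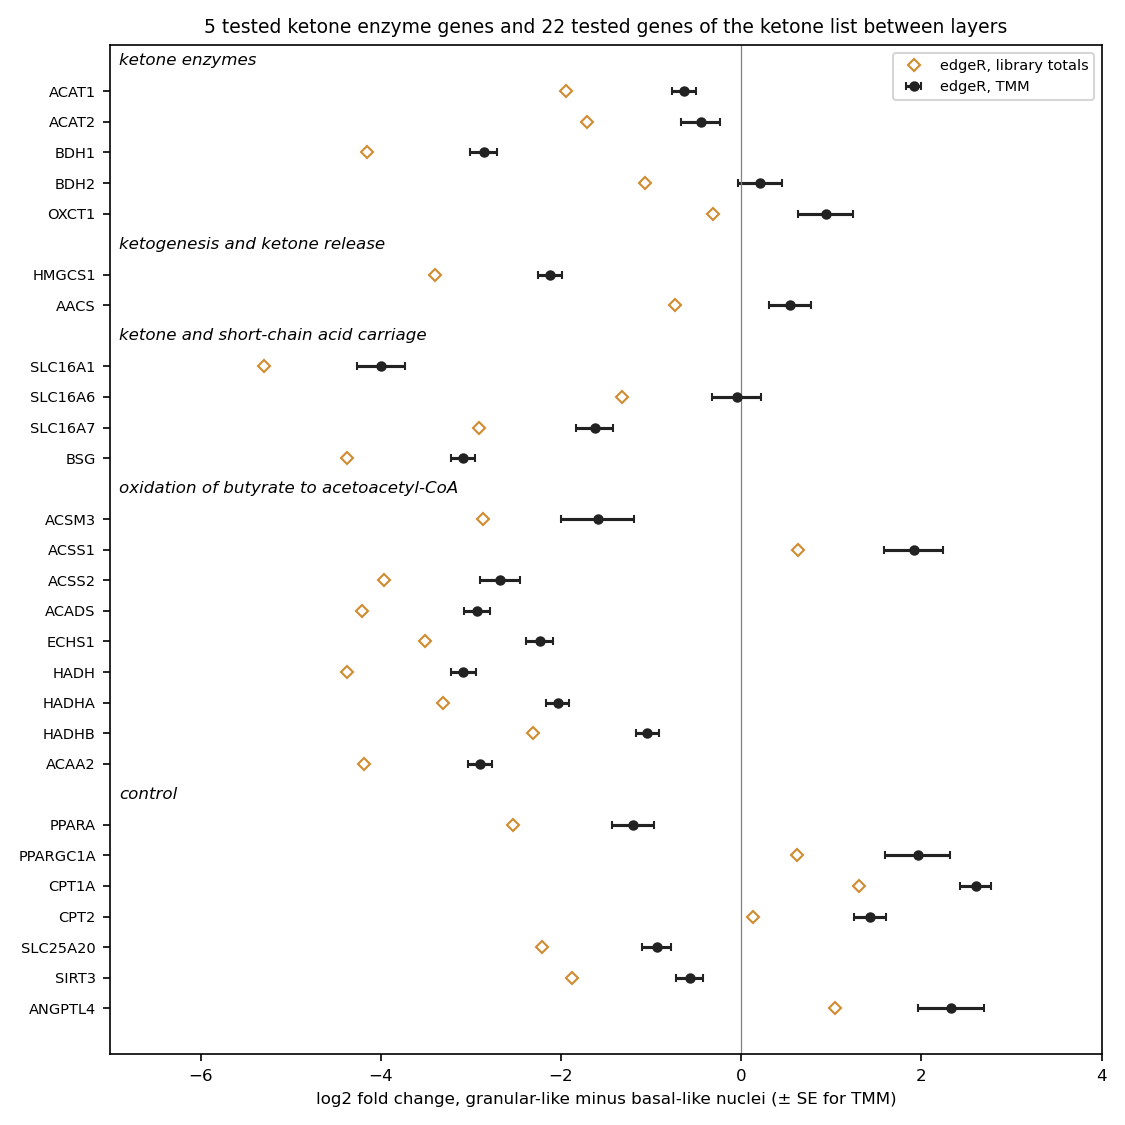
Log2 change from basal-like to granular-like nuclei by edgeR for 5 tested enzyme genes and 22 tested genes of the ketone pathway list, grouped by role. Filled points with SE bars use trimmed-mean (TMM) scaling and open diamonds use library totals. Most genes of carriage and oxidation lie below 0 under both, BDH1 lies at -2.86 by trimmed means, and CPT1A at 2.60 lies highest.

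Between the groups, no enzyme passed in any class by the main test. Over the 17 single classes large enough to fit, 69 combinations of an enzyme and a class could be tested, and edgeR called 0 of them at an adjusted p of 0.05, with 16 at an unadjusted p under 0.05 and a lowest adjusted p of 0.147. DESeq2 was run without the low-count filter and so over more than these 69 combinations. It called 1 (14 at an unadjusted p under 0.05), and limma-voom called 0 of the 69 (22). Over all genes in these classes edgeR called 0.0199%, DESeq2 1.3% and limma-voom 0.0571%, and 11.1%, 9.21% and 12% were at an unadjusted p under 0.05. Few genes of any kind passed by edgeR: 0% of 16300 in all keratinocyte-like nuclei, 0.00723% in basal-like, 0.0419% in spinous-like, 0.00789% in granular-like, 0.0779% in cycling and 0.0894% in fibroblast-like nuclei. With 3 animals a group, values that do not overlap are the clearest separation these data can give, and an exact permutation test could not go below p = 0.1.

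The directions were uniform for 3 genes. ACAT1 was higher in MGHS in all 16 classes tested (log2 fold changes of 0.03 to 1.19), BDH1 in all 15 (0.11 to 0.97), and OXCT1 was lower in all 14 (-1.82 to -0.06). ACAT2 was higher in 8 of 11 classes and BDH2 in 11 of 12. Classes share animals, so a common sign is not independent evidence. The share of all genes with the same sign in every class was not counted, so whether such uniform signs are unusual is unknown. By library totals, which lowered the median of all genes by 0.11 to 0.14 in basal-like, spinous-like and cycling nuclei and by 0.34 in granular-like nuclei, OXCT1 turned to 0.01 in macrophage or dendritic-like nuclei and the other signs of these 3 genes held. By limma-voom, ACAT1 (-0.02) and BDH1 (-0.45) turned in cluster 1. In CPM all 3 MGHS animals were above all 3 MGNS animals in 12 of the 69 combinations and below them in 4, all of these for OXCT1. Over all genes and the same classes this held for 6.69% and 10.9%. By the thinned share of nuclei with a UMI, 8 of these 12 and 2 of these 4 were also without overlap. A further 3 combinations were apart by thinned share, with MGHS above. Thinned shares draw on the same UMIs as CPM, so they are not independent evidence. How many of all genes are apart by thinned share was not computed, here or for the classes below. By CPM within single classes, 2.6% to 9.04% of all genes tested were apart with MGHS above and 3% to 18.3% with MGHS below.

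**Figure D4:**
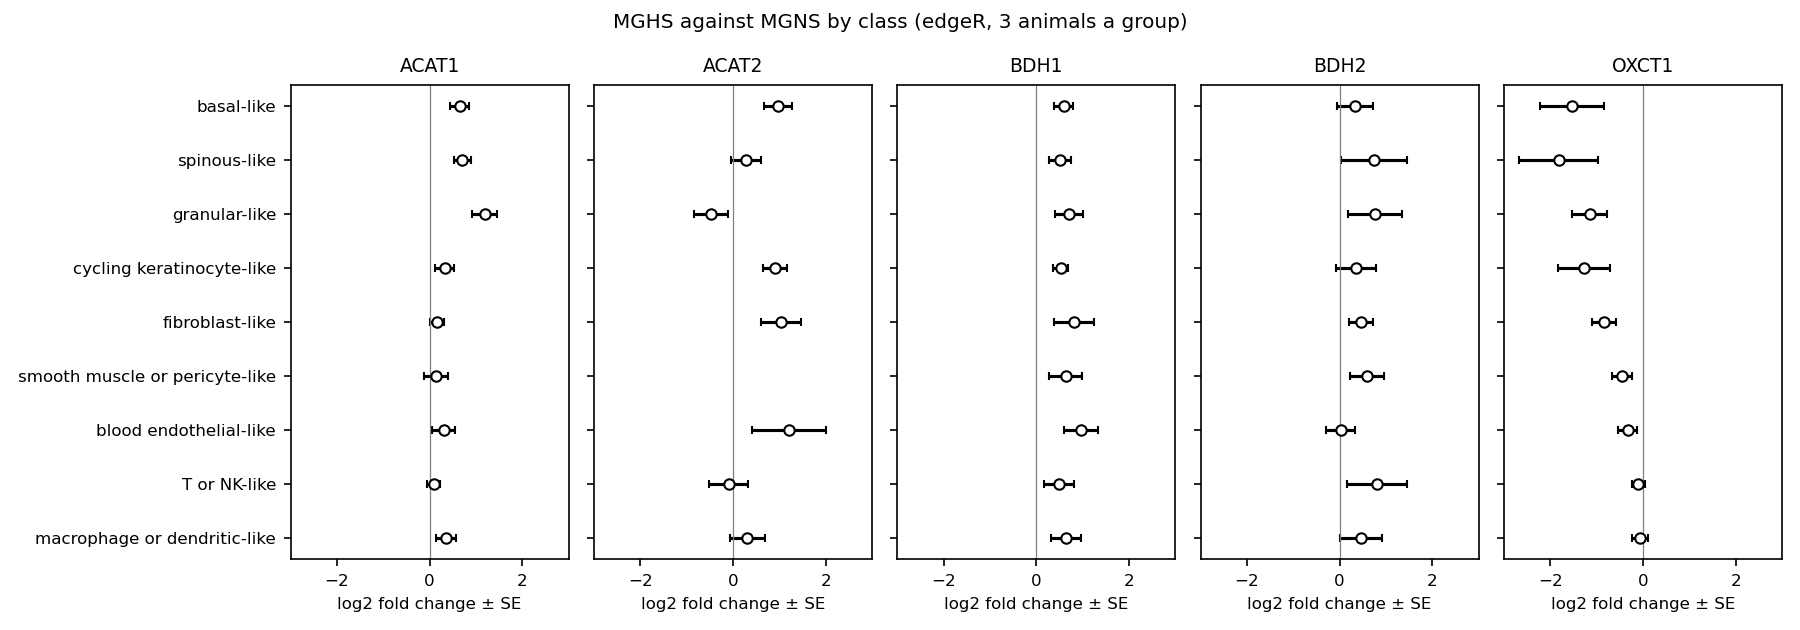
Log2 fold change of 5 enzyme genes, MGHS against MGNS, with SE bars in 9 named classes, by edgeR. No point is drawn where a gene could not be tested. ACAT1 and BDH1 lie above 0 in every class shown, OXCT1 lies below 0 in every class shown, and no value passed an adjusted p of 0.05.

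ACAT1 was higher in MGHS in all 3 keratinocyte layers by CPM. In basal-like nuclei the MGNS animals had 286, 207 and 247 CPM and the MGHS animals 390.4, 386 and 301 CPM (log2 fold change 0.65 ± 0.20 SE, edgeR adjusted p = 0.25). The spinous-like values were 139, 107 and 117 CPM against 210.3, 176 and 165 CPM (0.71 ± 0.19, adjusted p = 0.164). In granular-like nuclei they were 63.8, 52.2 and 59.2 CPM against 95.8, 93.6 and 114 CPM (1.19 ± 0.27, adjusted p = 0.147). CPM of the groups did not overlap in any of these 3 layers, where 7.75%, 7.13% and 4.4% of all genes had all MGHS animals above all MGNS animals. The thinned share of nuclei with an ACAT1 UMI overlapped in basal-like nuclei, at 41.6%, 32.5% and 36.1% against 51.6%, 50.6% and 41.5%, and did not in spinous-like nuclei (22.6%, 18.1% and 19.3% against 31.1%, 28.4% and 25.3%). Cycling CPM overlapped, with 353, 295 and 288 CPM against 382, 407 and 289.6 CPM.

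The granular-like ACAT1 difference was the 1 combination that DESeq2 called (1.21 ± 0.31, adjusted p = 0.0066), where DESeq2 called 4.63% of all genes. By limma-voom its adjusted p was 0.0628. By library totals, with the shift given above, the fold change was 0.79 in place of 1.19. The granular-like class joined clusters 8 and 9, and cluster 8 held 162, 111 and 381 nuclei in MGNS 1, 2 and 3 and 756, 910 and 572 in MGHS 1, 2 and 3. ACAT1 differed by 1.08 ± 0.29 in cluster 8 alone and by 0.69 ± 0.24 in cluster 9 alone. Groups did not overlap in CPM in either cluster, where 4.83% and 6.87% of all genes had all MGHS animals above all MGNS animals. The thinned share of granular-like nuclei with an ACAT1 UMI was 9.60% ± 0.912 in MGNS and 16.4% ± 2.14 in MGHS (unthinned 33.5% and 44.2%), also without overlap.

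Outside the keratinocytes, ACAT1 overlapped between groups in both the T or NK-like and the fibroblast-like class. T or NK-like nuclei held 109.9, 100.4 and 118 CPM in MGNS against 112, 108 and 141 CPM in MGHS (0.08 ± 0.15, adjusted p = 0.946), and fibroblast-like nuclei 102, 106 and 106 CPM against 114, 103 and 131 CPM (0.15 ± 0.15, adjusted p = 0.699). Whether these differences are smaller than those in keratinocytes was not tested. Over all nuclei ACAT1 was 146, 113 and 131 CPM against 174, 187 and 181 CPM (0.59 ± 0.16, adjusted p = 0.137, and 0.0229 by DESeq2, which called 6.8% of genes), where more cells of a type and more RNA per cell cannot be told apart.

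Fold changes of ACAT2 between the groups had opposite signs in the basal-like and granular-like layers. Basal-like values were 32.3, 20.3 and 31.1 CPM in MGNS and 36.7, 45.3 and 68.3 CPM in MGHS (0.97 ± 0.31, adjusted p = 0.253), and cycling values 35.3, 35.9 and 35.2 CPM against 44.3, 58.0 and 74.9 CPM (0.90 ± 0.25, adjusted p = 0.178). Groups did not overlap in either class by CPM or by thinned share (5.01% ± 0.906 against 8.79% ± 2.22 in basal-like and 6.51% ± 0.458 against 10.3% ± 2.57 in cycling nuclei), and MGHS 3 was the highest in both. By CPM, 7.75% of all genes in basal-like and 5.85% in cycling nuclei had all MGHS animals above all MGNS animals. In basal-like nuclei the 11 cycling markers also moved with the group, summing to 121 to 163 CPM in MGNS and 211 to 264 CPM in MGHS, with 9 of 11 higher and apart and none at 0. ACAT1 and ACAT2 are highest in cycling nuclei, and the part of these markers in either basal-like difference was not tested. With no filter on low counts cycling ACAT2 passed (adjusted p = 0.0179), as did 2.38% of genes. In granular-like nuclei the values were 17.0, 12.8 and 16.2 CPM against 5.72, 4.77 and 17.7 CPM (-0.47 ± 0.36, adjusted p = 0.539), with MGHS 3 again apart from its group.

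The test of the difference itself, granular-like minus basal-like response, gave -1.38 ± 0.25 for ACAT2 (edgeR adjusted p = 0.0221), where 1.74% of 14158 genes passed, 74.5% of them with the higher response in granular-like nuclei (39.2% by library totals). It was -1.43 by DESeq2 and -1.72 by library totals, both past the threshold, which 5.7% and 0.918% of genes passed. Leaving out MGNS 2, MGNS 3, MGHS 1 or MGHS 2 ended the call, with adjusted p of 0.0869, 0.0723, 0.105 and 0.0973. ACAT1 had the opposite sign, 0.63 ± 0.19, and did not pass (adjusted p = 0.107, against 0.0261 by DESeq2 and 0.0445 by limma-voom, which called 3.72% of genes). BDH1, BDH2 and OXCT1 gave 0.26, 0.47 and 0.20, and none passed. For spinous-like minus basal-like response edgeR called 0 of 14158 genes, and ACAT2 stood at -0.75 with an unadjusted p of 0.0125.

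BDH1 CPM was higher in MGHS without overlap in cycling keratinocytes, with 189, 224 and 183 CPM in MGNS and 292, 253 and 239 CPM in MGHS (0.52 ± 0.17, adjusted p = 0.238), but the thinned shares overlapped, at 30.4%, 36.3% and 28.5% against 40.6%, 37.0% and 34.7%. In cycling nuclei 5.85% of all genes were apart in CPM with MGHS above. BDH1 was also apart at low levels in blood endothelial-like nuclei, 19.9, 10.5 and 12.5 CPM against 39.1, 24.2 and 21.5 CPM (0.97 ± 0.37, adjusted p = 0.452), and in smooth muscle or pericyte-like nuclei. Of all genes, 8.75% and 5.41% were apart in these classes with MGHS above. Thinned BDH1 shares over all 6 animals were 3.23% ± 1.53 and 3.05% ± 1.64 in these classes, at the level of T or NK-like nuclei. No background level was estimated, so neither is read as a difference in BDH1 expression. In basal-like nuclei, where it was highest, the groups overlapped, with MGNS 2 above MGHS 3 (0.59 ± 0.20, adjusted p = 0.276). Spinous-like nuclei gave 123, 174 and 106 CPM against 223, 179.6 and 130.0 CPM (0.52 ± 0.24, adjusted p = 0.371).

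OXCT1 was apart between groups in fibroblast-like nuclei, one of the classes where it was high. MGNS animals had 235, 202 and 344 CPM and MGHS animals 145, 180.4 and 107 CPM (-0.84 ± 0.27, adjusted p = 0.275), and every MGHS animal was below every MGNS animal, as for 10.4% of all genes in that class. The thinned share of nuclei with an OXCT1 UMI was 32.4% ± 5.35 in MGNS and 21.6% ± 3.89 in MGHS (unthinned 47.2% and 32.0%). This class joined clusters 0 and 4. Cluster 0 held 247, 287 and 390 nuclei in MGNS 1, 2 and 3 and 403, 356 and 537 in MGHS 1, 2 and 3. Cluster 4 held 90, 103 and 397 against 191, 204 and 182. MGNS 3, with the most cluster 4 nuclei, also had the highest OXCT1, and the part of this mix was not tested. Smooth muscle or pericyte-like nuclei gave 133, 128 and 127 CPM against 92.3, 111 and 71.2 CPM (-0.45 ± 0.22), and blood endothelial-like nuclei 145, 97.8 and 103 CPM against 89.3, 95.2 and 88.7 CPM (-0.33 ± 0.20). CPM did not overlap in either class, but thinned OXCT1 shares did, at 18.9% ± 2.26 against 14.7% ± 3.87 and 18.4% ± 3.66 against 15.8% ± 0.651. Of all genes, 9.24% and 6.97% had all MGHS animals below all MGNS animals in these classes. T or NK-like nuclei, the class with the highest OXCT1 by CPM, overlapped between groups (-0.10 ± 0.14, adjusted p = 0.939).

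Other genes of the fibroblast-like class moved with the group as well. The summed level of 13 fibroblast markers was 17757 to 20054 CPM in MGNS and 23138 to 29624 CPM in MGHS, with 5 of 13 markers higher and apart and none at 0. The 11 B or plasma markers summed to 1756 to 2392 CPM against 1108 to 1381 CPM, with 3 of 11 lower and apart. The 9 glia markers summed to 192 to 600.3 CPM against 686 to 1201 CPM, with only 1 of 9 higher and apart. CADM2 of the glia list was itself a leading gene of cluster 0, which is part of the fibroblast-like class. In smooth muscle or pericyte-like nuclei the fibroblast markers summed to 2383 to 3109 CPM against 4509 to 5260 CPM, with 7 of 13 higher and apart and 1 lower. The T or NK markers summed there to 444 to 597 CPM against 297 to 357 CPM, with 3 of 12 lower and apart. The part of these markers in the OXCT1 results was not tested.

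In keratinocytes the OXCT1 difference rested on few UMIs and largely on 1 animal. Basal-like values were 10.2, 41.9 and 6.74 CPM in MGNS and 9.002, 3.004 and 6.60 CPM in MGHS, so MGNS 2 stood far above the other animals and the remaining ones overlapped. The log2 fold change was -1.53 ± 0.69 (adjusted p = 0.357) and -0.40 without MGNS 2. Spinous-like values were 10.2, 36.2 and 2.39 CPM against 4.11, 2.58 and 5.72 CPM (-1.82 ± 0.85), and the fold change was -0.47 without MGNS 2. Granular-like nuclei were the exception, with 17.3, 13.8 and 6.88 CPM against 3.27, 3.96 and 5.99 CPM, no overlap, and -1.15 ± 0.38 (adjusted p = 0.21), or -1.06 without MGNS 2. Such a separation was common there: 18.3% of all genes in granular-like nuclei had all MGHS animals below all MGNS animals.

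Markers of classes that are high in OXCT1 also moved with the group in the same nuclei, T or NK markers down and, in basal-like nuclei, fibroblast markers up. In granular-like nuclei the 12 T or NK markers summed to 231 to 492 CPM in MGNS and 122 to 156 CPM in MGHS, with 11 of 12 lower and apart and none at 0. In basal-like nuclei they summed to 367 to 564 CPM against 257 to 284 CPM, with 6 of 12 apart, and MGNS 2 had the highest sum. The 13 fibroblast markers went the other way in basal-like nuclei, summing to 85.1 to 107 CPM in MGNS and 148 to 309.6 CPM in MGHS, with 4 of 13 higher and apart, and their sums overlapped in granular-like nuclei (105 to 137 against 71.3 to 294 CPM). The part of either list in the OXCT1 result was not tested.

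**Figure D5:**
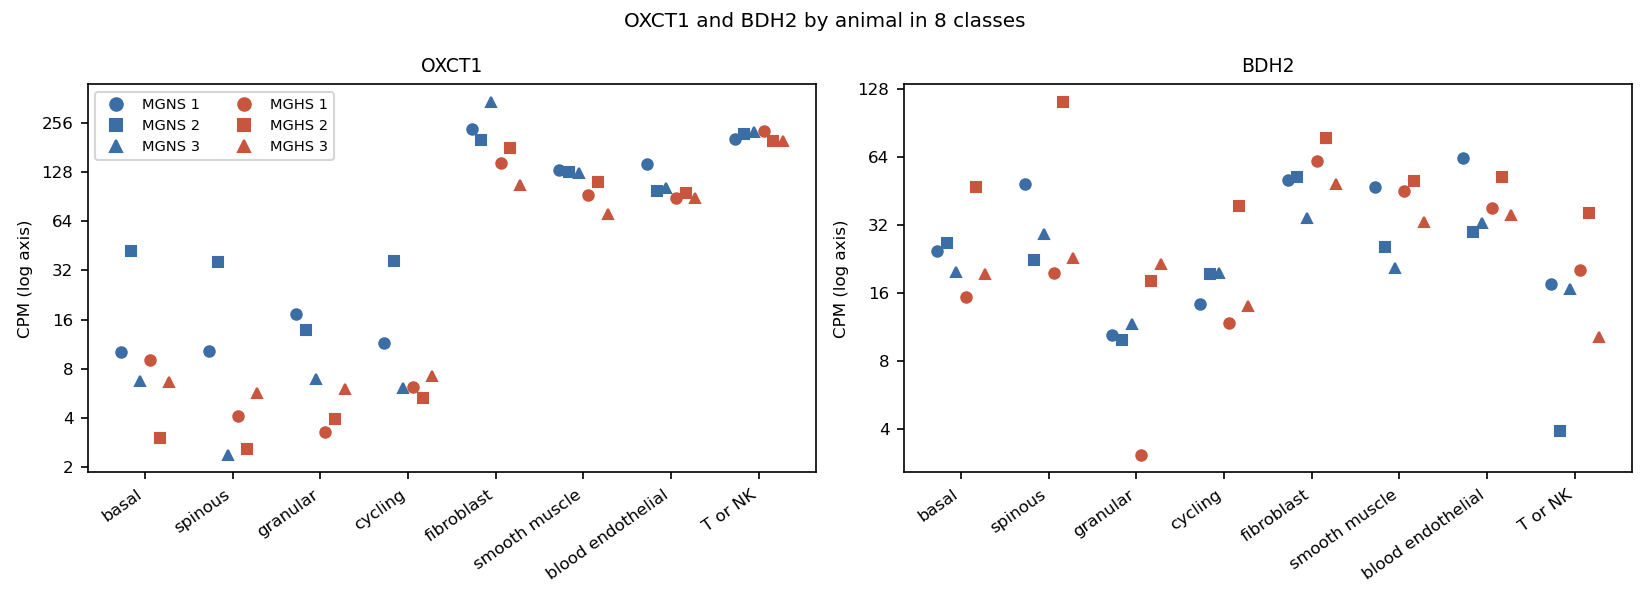
OXCT1 and BDH2 levels in CPM (log axis) for each animal in 8 classes, with colour for the group and shape for the replicate number. MGNS 2 lies highest for OXCT1 in basal-like, spinous-like and cycling nuclei, MGHS 2 lies highest for BDH2 in the same classes, and T or NK-like OXCT1 is level across animals.

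BDH2 CPM overlapped between the groups in every class. By thinned share BDH2 was apart in the unnamed cluster 1, at 7.10%, 10.9% and 7.84% in MGNS against 12.3%, 12.1% and 11.1% in MGHS. How common such a separation is among all genes by thinned share was not computed, so it is not read as a difference in BDH2. MGHS 2 was far above the others in the spinous-like layer, and leaving it out turned the log2 fold change from 0.74 to -0.55 there, from 0.34 to -0.32 in basal-like, from 0.36 to -0.31 in cycling and from 0.37 to -0.41 in all keratinocyte-like nuclei. The other MGHS animals lay among or below the MGNS animals in basal-like nuclei, at 15.4 and 19.3 CPM against 19.7 to 26.6 CPM. HMGCLL1 was testable in the fibroblast-like class alone among single classes, with a log2 fold change of 1.62 ± 0.64 (adjusted p = 0.366). All MGHS animals were above all MGNS animals there, as for 8.94% of all genes, and MGNS 2 was near 0.

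Of the 27 other ketone pathway genes reported here, none passed between groups in any class by edgeR, and 2 were at an unadjusted p under 0.05 in basal-like, 4 in spinous-like and 3 in granular-like nuclei, where 14.8%, 14.2% and 17% of all genes were. DESeq2 called 1, 1 and 1 in these layers, and 2.25%, 2.69% and 4.63% of all genes. In basal-like nuclei SLC16A1 was apart between groups, with 906, 516 and 694 CPM against 1117, 1382 and 1113 CPM (0.88 ± 0.28, edgeR adjusted p = 0.253, DESeq2 adjusted p = 0.0494). All MGHS animals were above all MGNS animals there, as for 7.75% of all genes. AACS was low in granular-like nuclei and lower in all MGHS animals, at 1.33, 1.98 and 2.42 CPM against 2.68, 5.82 and 4.32 CPM (-0.83 ± 0.42, adjusted p = 0.36). In that class 18.3% of all genes had all MGHS animals below all MGNS animals.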

How the data were processed

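Nuclear RNA of rumen epithelium from 6 lambs, 3 in MGNS and 3 in MGHS, was counted by droplet sequencing, 1 library per animal. Each deposited matrix gives raw UMI counts, as whole numbers, by gene and barcode. The file headers name Cell Ranger 8.0.0 as the authors' counter, while per the submitters' processing notes it was 2.1.1. Which was used is unknown. Neither the genome build nor the use of strand is given in the sources used here. Gene numbers were matched to symbols (26741 of 26741) through a table of ARS-UI_Ramb_v3.0, used for names and for which gene models overlap. CPM, shares and log2 values were computed here.

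Nuclei were kept with at least 300 genes, at most 10% mitochondrial UMIs and outside the top 0.5% of a library by UMIs. Scrublet (scanpy 1.11.5, Python 3.11.15, seed 0) called doublets, and where it called under 0.5% the nuclei with the highest scores were taken out instead, at 0.8% for every 1000 nuclei, giving 3661 doublets over the libraries. Leiden clustering (igraph 0.11.9, resolution 0.8) used 2000 variable genes, 30 principal components and 5 neighbours per library. Clusters were named by marker lists, and classes were fitted where every animal had 20 nuclei. UMI sums per animal were tested with edgeR 4.0.16 in R 4.3.3 (filterByExpr minimum count 10, TMM, robust quasi-likelihood test, Benjamini-Hochberg at 0.05), with DESeq2 1.42.0 and limma 3.58.1 (voom) beside it. The steps were tested on simulated data. For edgeR the standard error (SE) was taken as the size of the log2 fold change over the root of F. Alternatives covered scaling, the low-count filter, the doublet and UMI limits, the clustering, the pathway genes in clustering, a replicate block, leaving out each animal and 3 added after seeing the data.

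The genes and lists were chosen with earlier results of these data known. Named are the 6 enzymes, the list genes AACS and SLC16A1 and list genes that passed, given in part, and for each enzyme the 3 genes with the most similar class means among those with at least 20 CPM in a class. Of the 29 list genes kept out of the clustering, 27 are reported here.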

Additional observations from a re-analysis of the deposited data

Results flagged for a closer look

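For 2 of the enzyme and list genes, edgeR called a difference between granular-like and basal-like layers in the MGHS against MGNS fold change. It called 1.74% of 14158 genes in this test, and both calls depended on the animals included. The MGHS against MGNS log2 fold change of ACAT2 was lower in granular-like than in basal-like nuclei by -1.38 ± 0.25 (SE, edgeR adjusted p = 0.0221), from 0.97 in basal-like to -0.47 in granular-like nuclei when each layer was fitted alone. The granular-like ACAT2 levels were 5.72, 4.77 and 17.7 CPM in MGHS 1, 2 and 3 and 17.0, 12.8 and 16.2 CPM in MGNS 1, 2 and 3, so MGHS 3 lay above all MGNS animals and the other MGHS animals below them. Leaving out 1 animal gave -1.48 to -1.26. The ACAT2 call ended when MGNS 2, MGNS 3, MGHS 1 or MGHS 2 was left out.

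PPARA, a nuclear receptor that drives fatty acid oxidation and ketogenesis genes, had a granular-like minus basal-like difference in fold change of 1.42 ± 0.30 (edgeR adjusted p = 0.0378). Its granular-like levels were 5.06, 4.80 and 3.20 CPM in MGNS and 9.91, 6.17 and 7.67 CPM in MGHS, without overlap. In that class 4.4% of all genes had all MGHS animals above all MGNS animals. The basal-like PPARA levels overlapped, at 31.9, 54.1 and 27.3 CPM against 38.9, 34.96 and 26.1 CPM. PPARA did not pass by library totals (1.03, adjusted p = 0.207). Leaving out any animal but MGHS 3 also ended the PPARA call, with values of 1.205 to 1.573 over the 6 omissions. Granular-like cluster 8 held 162, 111 and 381 nuclei in MGNS and 756, 910 and 572 in MGHS, and its part in either result was not tested.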

How the results depend on the processing

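The 8 counts of enzymes called, and of the class in which each was highest, were recomputed under 115 alternatives. For 5 of them the value reported was 0, which 80 of 83 alternatives also gave; with so few genes called at all, this says little about stability. For the other 3, 25 of 32 alternatives stayed within 1.5 times the value reported. Where edgeR called 0, DESeq2 called 1 enzyme in granular-like nuclei (ACAT1) and 1 over all nuclei (ACAT1, 0.61, adjusted p = 0.0229), and edgeR without a filter on low counts called 1 in cycling nuclei (ACAT2, adjusted p = 0.0179). For the granular-like minus basal-like response, DESeq2 and limma-voom called 2 enzymes in place of 1, and leaving out 1 animal gave 0 to 1. By UMIs per nucleus, 3 of 6 enzymes were highest in the same class as by CPM. Over all genes, edgeR called 1, 5 and 1 in basal-like, spinous-like and granular-like nuclei, DESeq2 341, 345 and 577, and edgeR without the filter 33, 210 and 93. For the response edgeR called 247, DESeq2 676 and limma-voom 527, and leaving out 1 animal gave 0 to 927. The cause was not tested.

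By library totals the direction turned for ACAT1 (-0.94) and ACAT2 (-0.26) between granular-like and spinous-like nuclei, for BDH2 (-1.07), OXCT1 (-0.31) and AACS (-0.74) between granular-like and basal-like nuclei, and for the response of BDH1 (-0.076) and OXCT1 (-0.18). That of OXCT1 was -0.071 by limma-voom. Leaving out 1 animal gave ranges across 0 for BDH2 in all keratinocyte-like (-0.41 to 0.74), basal-like (-0.32 to 0.63), spinous-like (-0.55 to 1.13) and cycling nuclei (-0.31 to 0.64), for ACAT2 in spinous-like (-0.073 to 0.53) and T or NK-like nuclei (-0.74 to 0.26), for ACAT1 in T or NK-like nuclei (-0.019 to 0.14), for BDH2 between granular-like and basal-like nuclei (-0.028 to 0.34) and for the OXCT1 response (-0.45 to 0.69). The 3 alternatives on granular-like clusters 8 and 9 and on low-UMI clusters were chosen after seeing the data, and edgeR called 0 enzymes under each.

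With the replicate number as a block, edgeR called 0 enzymes between groups in all keratinocyte-like, basal-like, spinous-like and granular-like nuclei and in the other classes, as without it. Over all genes the block gave 19 calls in place of 1 in basal-like, 29 in place of 5 in spinous-like and 142 in place of 8 in cycling nuclei. Deviations from the group mean correlated by -0.13, -0.07 and 0.02 between animals with the same number, and by -0.07 to 0.15 between other pairs. With 3 animals a group this cannot settle whether a number marks a shared block. The labels do not say that it does, so the numbers were not taken to pair animals. Depth limits HMGCLL1 most, with 296 UMIs, and keratinocyte OXCT1, with 1391 UMIs.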
